A study of Mus musculus with 31 samples.

Results

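Of the HSP70 chaperone system, 6 genes are described over 31 libraries of choroid plexus T cells: the inducible HSP70 genes Hspa1a and Hspa1b, the constitutive cytosolic gene Hspa8, the endoplasmic reticulum gene Hspa5, and the co-chaperone genes Dnajb1 and Dnaja1. These 6 were taken by name from the 485 genes of the table. The members were chosen by their difference between enriched and standard housing in CD4 libraries, which was already known, so that difference is given below as a description with no test. None of the other listed genes of the HSP70 system (co-chaperones, nucleotide exchange factors, further HSP70 and DNAJ genes) was among the 485.

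HSP70 proteins are ATP-driven chaperones that bind unfolded stretches of other proteins and release them for refolding. DNAJ proteins, also called HSP40, deliver the unfolded client and switch on the ATPase of their HSP70 partner. Hspa1a and Hspa1b are known for a fast rise when heat shock factor is activated by heat, unfolded protein or handling of cells, whereas Hspa8 is present in unstressed cells as a housekeeping chaperone. Hspa5 encodes BiP, which folds new proteins in the endoplasmic reticulum and is raised by the unfolded protein response. Dnajb1 is a stress-inducible partner of cytosolic HSP70, and Dnaja1 is a farnesylated partner with a large constitutive share. In T cells, activation and tissue dissociation are both known to raise several of these transcripts.

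Female C57BL6/J mice gave the choroid plexus, from which CD45+ CD11b- CD3+ cells were sorted as CD4+ or CD8+. From 4 weeks of age the animals were housed in enriched (EE) or standard (SE) conditions for a further 4 weeks, EE meaning large cages with wheels, toys and tunnels whose objects were changed, and SE meaning smaller cages that held none of these. The libraries fell into CD4 EE (n = 9), CD4 SE (n = 8), CD8 EE (n = 7) and CD8 SE (n = 7) and each was made from a pool of 6 to 20 sorted cells. No transgene or drug is named in the labels. Within an experiment the mice of 1 environment shared a cage, and effects of the cage and of the environment cannot be told apart. Titles carry a first number, 1 (19 libraries) or 2 (12 libraries), whose meaning the labels do not give. It was used here as a possible batch. The titles of CD8 SE replicates 5 and 6 give animal 5 for both while their column names join animals 5 and 6, so they may not be independent and may hold cells of more than 1 animal.

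Hspa1a and Hspa1b are neighbouring near-copies, and their sequences are shown because they set how far their values can be told apart. In GENCODE vM21 (GRCm38), Hspa1a lies at chr17:34969190-34972156 and Hspa1b at chr17:34956436-34959238, both on the minus strand. Of the 31-base words in Hspa1a transcripts, taken over their whole length, 63.8% also occurred in Hspa1b. Reads of the shared stretches do not by themselves tell the genes apart. How such reads were counted is not described, and the sum of Hspa1a and Hspa1b was tested beside the single genes. Hspa8 (chr9:40800984-40810087) shared 38.6% of its words with the predicted gene Gm15459, and Dnaja1 (chr4:40722150-40737149) shared 11.2% with Gm15542. Hspa5 (chr2:34771970-34777547) and Dnajb1 (chr8:83608193-83612653) shared 0.0234% and 0.412% of their words with any other gene. Hspa8, Dnaja1, Hspa5 and Dnajb1 are on the plus strand.

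The 250 bases before the start of Hspa1a (chr17:34972157-34972406, minus strand) and of Hspa1b (chr17:34959239-34959488, minus strand) follow, from RefSeq promoters of GRCm38.p6. Capitals mark GAANNTTC, facing units of the heat shock element, and ATTGG, which is CCAAT on the opposite strand.
Hspa1a: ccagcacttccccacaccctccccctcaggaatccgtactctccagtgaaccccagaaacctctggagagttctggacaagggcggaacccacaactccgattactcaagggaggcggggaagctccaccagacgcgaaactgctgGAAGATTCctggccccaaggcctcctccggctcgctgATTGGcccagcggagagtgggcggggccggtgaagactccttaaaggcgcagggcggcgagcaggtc
Hspa1b: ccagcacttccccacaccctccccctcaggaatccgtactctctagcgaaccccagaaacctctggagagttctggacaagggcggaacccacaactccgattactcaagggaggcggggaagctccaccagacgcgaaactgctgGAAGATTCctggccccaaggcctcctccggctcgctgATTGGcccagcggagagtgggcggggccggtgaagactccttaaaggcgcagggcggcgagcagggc

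These windows were identical at 247 of 250 bases, and in both the GAANNTTC match began 104 bases and the ATTGG match 67 bases before the start. Letters GAANNTTC were present in 6.69% and CCAAT, on either strand, in 33.85% of the 32851 promoters searched over the same length. The other arrangement of these units, TTCNNGAA (7.17% of promoters), was in no window of the 5 members that had one. One of the 3 Dnaja1 windows also held GAANNTTC. In the Hspa5 window, 4 CCAAT matches were counted on both strands. One of them stood 9 bases before CCACG, the spacing of the textbook endoplasmic reticulum stress element, at chr2:34772025-34772043 on the plus strand, inside an annotated Hspa5 exon. That stretch is shown because no window of the cytosolic members held it.
Hspa5: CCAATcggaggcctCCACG

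This spaced motif, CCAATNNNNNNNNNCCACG on either strand, was looked for after the Hspa5 window had been read and was present in 37 of the 32851 promoters (0.113%). Dnajb1 windows held neither form of the heat shock letters. They overlap annotated exons, of Dnajb1 itself at chr8:83608298-83608547, which lies inside the gene, and of Tecr at chr8:83607925-83608174. Hspa8 had no promoter entry and is named only.

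The deposited values were UMI counts, which count tagged RNA molecules, divided by a size factor of each library. Recovered UMI totals over the table were 1910 to 26395 per library, with 1910 to 10089 in libraries of first number 1 and 7657 to 26395 in those of first number 2. Cd4 was at 0 in all 14 CD8 libraries, and Cd3g and Cd3d were above 0 in all libraries. Cd8a and Cd8b1 were at 0 in all 17 CD4 libraries, which was set beforehand, since the authors left out CD4 samples with these transcripts. Of the 17 CD4 libraries, 16 had Cd4 above 0, and of the 14 CD8 libraries, 13 had Cd8b1 above 0. Ttr and Enpp2, the 2 listed choroid plexus epithelium genes in the table, summed to 74.9 to 312 normalised counts per library, and their part in the chaperone values was not tested. The 6 genes together took 0.660% to 4.01% of the UMIs of a library (median 1.86%). In these bulk pools, fewer cells that express a gene and less RNA per cell cannot be told apart.

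The 3 CD8 EE libraries of first number 1 (replicates 4, 5 and 7) stood apart in the members' share. Their 6 genes took 0.660% to 0.908% of the UMIs, below the 1.08% to 4.01% of the other 28 libraries, and Hspa1a rested on 3, 1 and 1 UMIs. The same 3 libraries held 10.4 to 24.6 normalised counts of Cst3, a gene of myeloid and epithelial cells, against 0 to 22.9 (median 4.49) in the other 28. The 22.9 was that of CD4 SE replicate 2, where Hspa1a was 83.8. CD8 EE replicates 4 and 7 held the highest Ttr and Enpp2 sums of all (312 and 302.5) while CD8 EE replicate 5 held the lowest (74.9). Several of the tests, ranges over all libraries and correlations that rest on these 3 CD8 EE libraries are given with and without them. The counts of mice with both cell types include them. Leaving them out was chosen after their values were seen, by group and first number.

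Hspa1a is the first of the inducible genes. In CD4 EE libraries it ran from 10.6 through a median of 17.4 to 64.7 normalised counts, and in CD4 SE from 18.02 through 37.9 to 85.6. In CD8 EE it ran from 1.15 through 12.4 to 54.8, and in CD8 SE from 8.27 through 20.4 to 33.7. The order of the group means was CD4 SE (48.8 ± 26.7, SD, n = 8), CD4 EE (27.1 ± 20.6, n = 9), CD8 SE (21.2 ± 10.97, n = 7) and CD8 EE (20.4 ± 21.3, n = 7). The 4 CD8 EE libraries of first number 2 alone had a mean of 33.5 ± 19.3, above that of all 7 CD8 SE libraries. The 2 CD8 SE libraries of first number 2 had a mean of 24.5 ± 13.0. The order of the CD8 groups thus rests on the other 3 CD8 EE libraries, of first number 1. Only the step from CD4 SE to CD4 EE exceeded the smaller SD of the neighbours, and none exceeded both SDs.

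Hspa1b, its neighbouring copy, ran in the same order of groups at 0 to 21.6 in CD4 EE (median 4.94), 5.69 to 30.8 in CD4 SE (13.8), 0 to 13.8 in CD8 EE (4.61) and 2.07 to 16.8 in CD8 SE (5.88). No neighbouring group means of Hspa1b differed by more than the smaller SD. It had no UMI in CD4 EE replicate 3 and CD8 EE replicate 7, where a count of 0 allows up to 5.30 and 5.89 normalised counts. Floors of this kind take 3 UMIs per library and cover counting error only.

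Hspa8, the constitutive member, had the narrowest range by ratio. It ran from 29.4 to 69.0 in CD4 EE (median 47.7), 28.8 to 85.8 in CD4 SE (55.9), 25.5 to 63.8 in CD8 EE (47.8) and 39.1 to 59.9 in CD8 SE (52.3). Its highest library was 3.36 times its lowest over all 31, against 74.3 times for Hspa1a. The Hspa1a ratio rested on few UMIs: it was 43.6 without CD8 EE replicate 5 and 10.4 without the 3 CD8 EE libraries of first number 1, where Hspa8 gave 2.98. All 4 groups overlapped, and no neighbouring group means differed by more than the smaller SD.

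Hspa5, the endoplasmic reticulum member, ran from 5.80 to 18.9 in CD4 EE (median 7.48), 7.20 to 15.3 in CD4 SE (11.4), 0 to 8.23 in CD8 EE (5.08) and 4.13 to 15.0 in CD8 SE (7.73). CD8 EE was the lowest group, below CD8 SE by more than the smaller SD and by less than the larger. The value of 0 was CD8 EE replicate 4, where 3 UMIs would equal 6.16 normalised counts.

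Among the co-chaperones, Dnajb1 ran from 2.94 to 21.3 in CD4 EE (median 8.12), 6.64 to 43.2 in CD4 SE (27.3), 2.31 to 32.9 in CD8 EE (8.29) and 4.52 to 30.9 in CD8 SE (12.9). Dnaja1 ran from 0 to 14.1 in CD4 EE (9.90), 12.3 to 38.1 in CD4 SE (26.7), 0 to 24.6 in CD8 EE (8.21) and 4.13 to 15.9 in CD8 SE (9.05). For both, CD4 SE had the highest mean and CD4 EE the lowest. For Dnaja1 the gap between CD4 SE and the next group exceeded both SDs, while its other 3 groups lay within the smaller SD of each other. Dnaja1 had no UMI in CD4 EE replicate 8 and CD8 EE replicate 7, which allows up to 4.35 and 5.89 normalised counts.

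**Figure D1:**
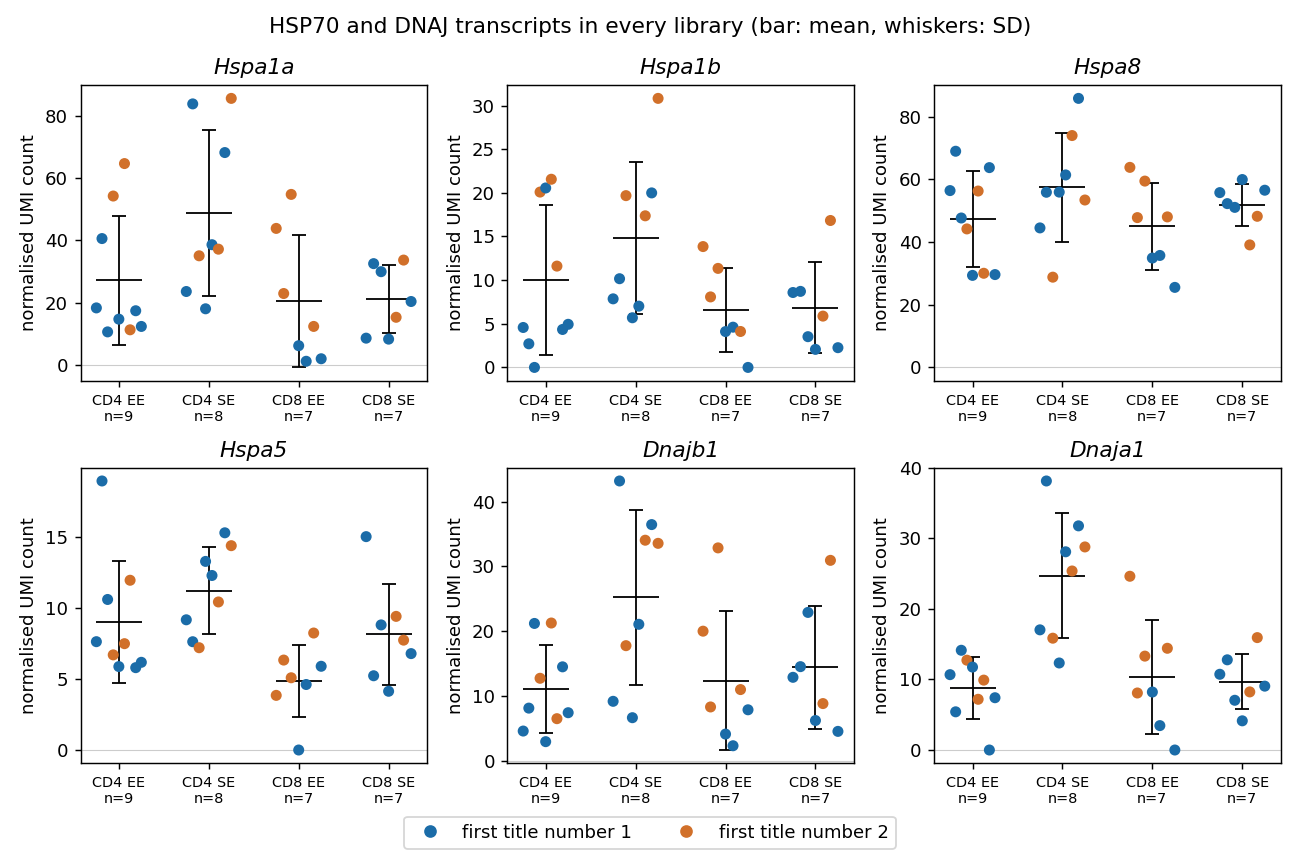
Normalised UMI count of each gene (vertical axis, 1 panel per gene) in the 4 groups, 1 point per library, coloured by the first title number, with the mean as a bar and the SD as whiskers. Hspa1a spans 1.15 to 85.6 and Hspa8 25.5 to 85.8, and the 3 lowest Hspa1a points are CD8 EE libraries of first number 1.

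In CD4 libraries all 6 genes had lower means in EE than in SE, and this is the difference with which they were chosen. Dnaja1 differed by -1.58 on the log2(value + 1) scale, with 7 of the 9 EE libraries below all 8 SE libraries. Dnajb1 differed by -1.12, Hspa1a by -0.94 and Hspa1b by -0.86. Hspa5 and Hspa8, the endoplasmic reticulum and constitutive members, differed by -0.34 and -0.28, against a median of -0.04 over all 483 genes. In the limma fit across the table, 0.0% of genes (0 of 483) passed the threshold of 0.05 after Benjamini-Hochberg adjustment, and 3.73% (18 genes) had an unadjusted p under 0.05. Nothing is read from these shares, since this difference chose the genes.

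The difference in CD4 libraries kept its sign within each first number, which is a description only, since this difference chose the genes. For Dnaja1 it was -1.80 in first number 1 (6 EE and 5 SE libraries) and -1.14 in first number 2 (3 and 3), where the 3 EE libraries (7.19, 9.90 and 12.7) lay below the 3 SE libraries (15.8, 25.4 and 28.8). EE below SE without overlap in first number 2 was met by 4.14% of genes. For Dnajb1 it was -1.10 in both. For Hspa1a and Hspa1b it was -1.16 and -1.05 in first number 1, and -0.47 and -0.34 in first number 2. Leaving out each library in turn gave -1.70 to -1.20 for Dnaja1 and -1.06 to -0.50 for Hspa1b.

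Between cell types, the 6 genes had higher mean log2 values in the 17 CD4 than in the 14 CD8 libraries, and none passed the threshold. In this fit (limma with the environment as a term, Benjamini-Hochberg adjustment over 485 genes) 7.42% of genes were called, and 4.33% (21 of the 36) were called higher in CD4. Hspa1a was nearest: 10.6 through a median of 35.0 to 85.6 in CD4 and 1.15 through 17.8 to 54.8 in CD8 libraries, a difference of 1.03 (SE 0.34) with a limma adjusted p of 0.0511. Of the CD8 libraries, 5 lay below every CD4 library, and 4 CD4 libraries lay above every CD8 library.

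Hspa5 ran from 5.80 through 9.16 to 18.9 in CD4 and from 0 through 6.11 to 15.0 in CD8 libraries, a difference of 0.69 (SE 0.24, limma adjusted p = 0.0656). Hspa1b differed by 0.72 (SE 0.37, limma adjusted p = 0.252), Dnaja1 by 0.62 (SE 0.34, adjusted p = 0.274) and Dnajb1 by 0.39 (SE 0.30, adjusted p = 0.456). Hspa8 differed by 0.08 (SE 0.15, limma adjusted p = 0.782), with CD4 libraries at 28.8 to 85.8 and CD8 libraries at 25.5 to 63.8. These CD4 values are the same libraries with which the genes were chosen.

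The Hspa1a value depended on the model and on the 3 CD8 EE libraries of first number 1. With the mouse as a replicate block it was 1.04 (limma adjusted p = 0.0335), and with the first number as a covariate 1.12 (limma adjusted p = 0.0118), where 10.9% and 7.84% of all genes were called. Within first number 1 it was 1.69 (limma adjusted p = 0.000821, 4.12% of genes called), within first number 2 0.58 (limma adjusted p = 0.487), and the interaction of cell type and first number was -1.17 (SE 0.60, limma adjusted p = 0.667). Without the 3 CD8 EE libraries it was 0.49 (SE 0.31, limma adjusted p = 0.374), and edgeR and DESeq2 gave adjusted p of 0.176 and 0.163. Leaving out CD4 EE replicate 3 or 5, or CD8 EE replicate 1, 2 or 3, each brought it under the threshold (limma adjusted p 0.0161 to 0.0463). In that order these fits called 42, 44, 30, 29 and 35 of 485 genes. The sum of Hspa1a and Hspa1b differed by 0.99 (limma adjusted p = 0.0474), where 41 of 484 genes were called. Hspa5 passed by DESeq2 (0.62, adjusted p = 0.0377), where 55 of 485 genes were called. Without CD8 SE replicate 1 it also passed (0.77, limma adjusted p = 0.0433), with 36 of 485 called. Hspa5 was 0.47 (limma adjusted p = 0.195) without the 3 CD8 EE libraries.

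By environment, first number and animal number in the titles, 10 mice had libraries of both cell types, and these are set side by side without a test. The labels do not define these numbers, and over all genes the deviations of paired libraries correlated over 0.1 in 1 of 11 pairs (median 0.0104), so the pairing rests on the titles. CD4 was higher than CD8 in 9 of 10 mice for Hspa1a, with a median log2 difference of 1.27, and in 9 of 10 for Hspa5, with a median of 0.37. The exception for Hspa1a was an SE mouse (18.02 in CD4, 29.9 in CD8) and for Hspa5 another SE mouse (9.16 and 15.0). CD4 was higher in 8 mice for Hspa1b and Dnaja1, in 6 for Hspa8 and in 5 for Dnajb1. Without the SE mouse whose CD8 columns join animals 5 and 6, the counts were 8 of 9 for Hspa1a and Hspa5, 7 for Hspa1b and Dnaja1, 5 for Hspa8 and 4 for Dnajb1, whose median difference went from 0.24 to -0.0754.

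**Figure D2:**
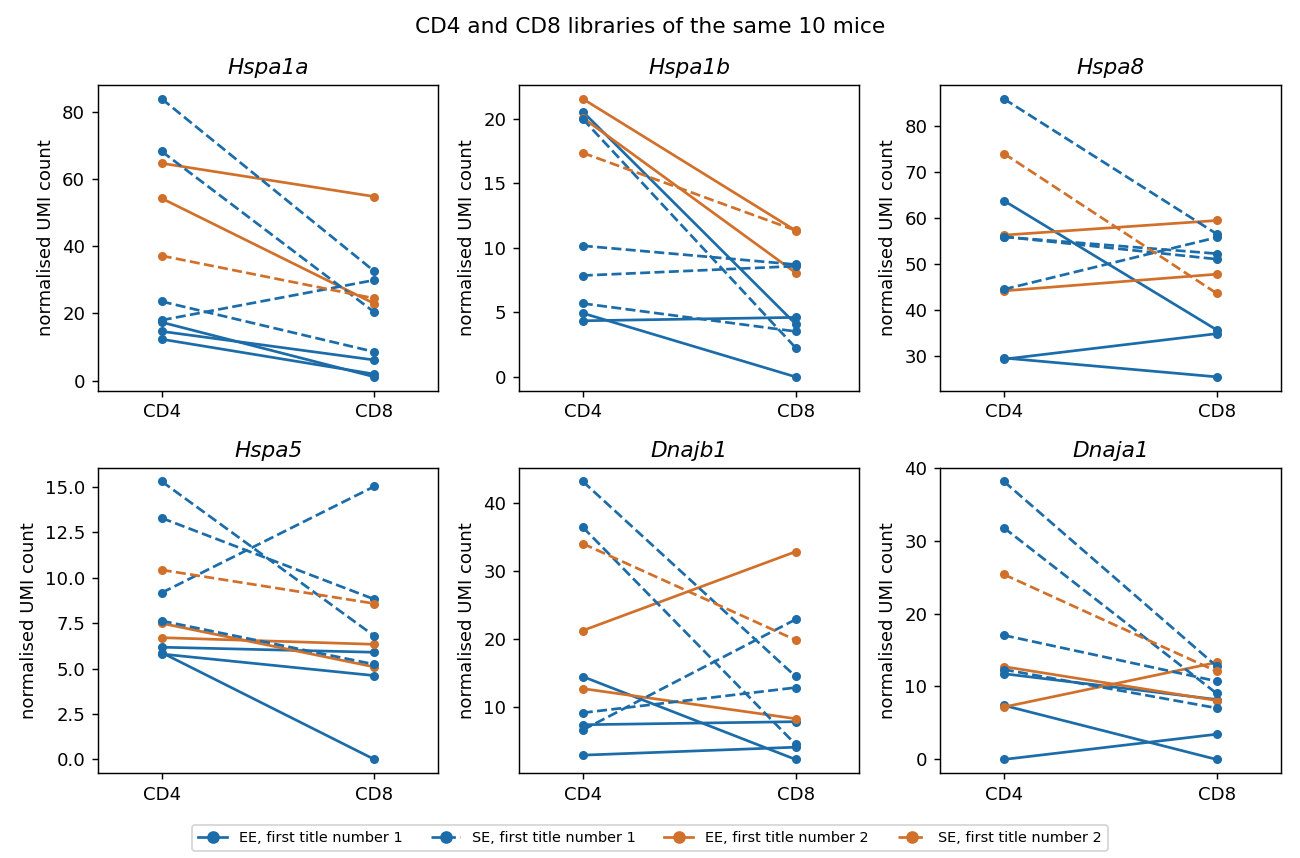
Normalised UMI count (vertical axis) of each gene in the CD4 and the CD8 library of the same mouse by title, 10 mice joined by lines, solid for EE and dashed for SE, coloured by first title number; for 1 SE mouse the CD8 value is the mean of CD8 SE replicates 5 and 6. Lines fall from CD4 to CD8 in 9 of 10 mice for Hspa1a and in 5 of 10 for Dnajb1.

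Libraries of first number 2 held more of the inducible transcripts than those of first number 1. Hspa1b ran from 4.12 through a median of 15.3 to 30.8 in first number 2 and from 0 through 4.61 to 20.6 in first number 1, a difference of 1.47 (SE 0.32, limma with the group as a term, adjusted p = 0.00201), or 2.36 times in means. Hspa1a ran from 11.3 through 36.1 to 85.6 and from 1.15 through 18.02 to 83.8, a difference of 1.18 (SE 0.32, limma adjusted p = 0.0096). Their ranges overlapped for both genes. Of the 6 genes, 2 passed the threshold, both higher in first number 2, against 10.7% of all genes called and 7.01% called in that direction.

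The other members fell short of the threshold. Dnajb1 differed by 0.83 (SE 0.29, limma adjusted p = 0.0579) and Dnaja1 by 0.77 (SE 0.32, adjusted p = 0.119). Hspa5 differed by 0.26 (SE 0.25, limma adjusted p = 0.613) and Hspa8 by 0.00 (SE 0.16), the latter at -0.25 without the 3 CD8 EE libraries of first number 1 (limma adjusted p = 0.397). For Hspa8, first number 1 held 25.5 to 85.8 (median 55.8) and first number 2 held 28.8 to 74.0 (48.1), whereas the Hspa1a and Hspa1b sum per Hspa8 UMI had medians of 0.424 and 0.975.

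The calls of the near-copies differed in stability. Hspa1b kept an adjusted p of at most 0.00796 under all 40 alternatives run, among them edgeR, DESeq2 and the omission of each library. Hspa1a kept its call when any single library was left out (limma adjusted p 0.00363 to 0.0238), but without the 3 CD8 EE libraries of first number 1 its difference was 0.57 (SE 0.31, limma adjusted p = 0.261), where Hspa1b remained at 1.41 (SE 0.35, limma adjusted p = 0.00796, 10.9% of genes called). Dnajb1 passed by edgeR (0.77, adjusted p = 0.036), where 90 of 485 genes were called. After rescaling of totals it also passed (0.91, limma adjusted p = 0.0242), with 69 of 485 called. It passed under 3 further settings: pseudocount 4 (64 of 485 called), a mean of at least 5 (60 of 363) and CD8 SE replicates 5 and 6 averaged (53 of 485). Leaving out any of 8 libraries brought it under the threshold too, with 50 to 59 of 485 called. These were CD4 EE replicate 3, 7 or 8, CD4 SE replicate 2, 3 or 7, and CD8 SE replicate 3 or 5. The main fit, where Dnajb1 fell short, called 52 of 485. First number, depth and whatever else differed between these libraries cannot be told apart. The Ttr and Enpp2 sum had medians of 173 in first number 1 and 115 in first number 2.

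**Figure D3:**
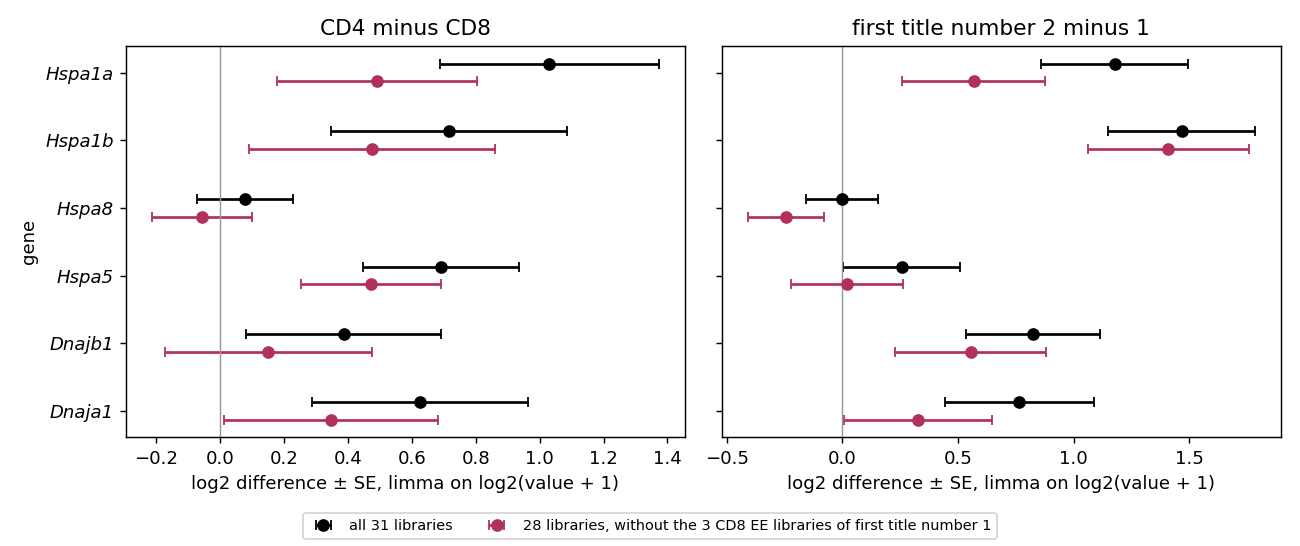
Log2 differences (horizontal axis, points) with SE (bars) from limma on log2(value + 1) for the 6 genes, CD4 minus CD8 at left and first number 2 minus 1 at right, in all 31 libraries (black) and without the 3 CD8 EE libraries of first number 1 (red). Hspa1a moves from 1.03 to 0.49 and from 1.18 to 0.57, while Hspa1b in the right panel stays near 1.4.

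In CD8 libraries, which took no part in the choice of the genes, no difference between EE and SE passed the threshold for any of the 6. Of all genes, 0.0% (0 of 484) passed by limma, and 2.48% (12 genes) had an unadjusted p under 0.05, none of the 6 among them. With the first number as a covariate, since its libraries were unevenly spread over EE and SE, none was called either. Hspa1a and Hspa5 were then among 13 of 484 genes with an unadjusted p under 0.05. By edgeR and DESeq2 the count was also 0, beside 12 and 6 genes by unadjusted p. Hspa1a differed by -0.70 (SE 0.56, limma adjusted p = 0.99), Hspa5 by -0.79 (SE 0.41, adjusted p = 0.95), Dnajb1 by -0.35 (SE 0.43), Dnaja1 by -0.33 (SE 0.49), Hspa8 by -0.25 (SE 0.19) and Hspa1b by -0.15 (SE 0.50). With the covariate Hspa1a differed by -1.23 (SE 0.45, unadjusted p = 0.0111) and Hspa5 by -0.97 (SE 0.42, unadjusted p = 0.0293), both with a limma adjusted p of 0.899. Leaving out single libraries gave -1.07 (without CD8 EE replicate 3) to -0.29 (without CD8 EE replicate 5) for Hspa1a. A missed threshold does not show that EE and SE were alike.

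The values of EE and SE in CD8 libraries are given for each first number. In first number 1, Hspa1a was 1.15, 1.96 and 6.16 in the EE libraries and 8.27, 8.58, 20.4, 29.9 and 32.5 in the SE libraries, without overlap (-2.34, SE 0.52, limma adjusted p = 0.0409). It was the single gene called in that fit, 0.207% of those tested. In first number 2 it was 12.4, 22.9, 43.8 and 54.8 in EE against 15.3 and 33.7 in SE, a difference of 0.33 (SE 0.46, limma adjusted p = 0.982). Hspa8 had the same pattern, with EE libraries (25.5, 34.9 and 35.7) below all 5 SE libraries (51.1 to 59.9) in first number 1, a difference of -0.78 (limma adjusted p = 0.584), and 0.32 in first number 2.

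EE below SE without overlap was met by 1.65% of genes (8 of 484) in first number 1, Hspa1a and Hspa8 among them, and by 5.79% (28 genes) in first number 2, none of the 6 among them. The interaction of environment and first number was 2.67 (SE 0.76) for Hspa1a and 1.09 (SE 0.32) for Hspa8, with a limma adjusted p of 0.507 for both, so the difference between first numbers did not pass the threshold. That test was added after the values were seen. The EE libraries concerned are the same 3 that stood apart above, in which Cst3 was 10.4 to 24.6, against 0 to 12.4 in the SE libraries of first number 1. Hspa1a there rested on 5 UMIs in all, and the part of Cst3, Ttr and depth in these values was not tested.

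Across all 31 libraries, Hspa1a and Dnajb1 had the highest r of the 15 pairs, which did not hold within each subset. Where CD4 EE and CD4 SE libraries both entered and no means were subtracted, r includes the difference that chose the genes. Positive r between members is then partly set beforehand. For Hspa1a and Dnajb1, r was 0.728 and rho 0.729 over all libraries, and 0.716 without the 2 libraries farthest from the median of Hspa1a. It was 0.566 after the mean of each group and first number was subtracted. Without the 3 CD8 EE libraries of first number 1 it was 0.686. Within first number 1 it was 0.663, where Hspa1a and Hspa8 had 0.674, and without those 3 libraries the values were 0.601 and 0.448. Within first number 2 it was 0.766, where Hspa1a and Hspa1b had 0.813. Within the 14 CD8 libraries it was 0.775, where Hspa1b and Dnaja1 had 0.86, and without those 3 libraries the values were 0.686 and 0.749. For Hspa1a and Hspa1b, r was 0.644, 0.598 without those 3 libraries and 0.38 after the means were subtracted. Reads of the stretches they share do not by themselves tell these genes apart. For Hspa1a and Hspa8, r was 0.564, 0.39 without those 3 libraries and 0.456 after subtraction.

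Hspa5 gave r of 0.345 with Hspa1a, 0.342 with Dnajb1, 0.336 with Hspa8, 0.254 with Dnaja1 and 0.135 with Hspa1b. After the means were subtracted these were -0.26, 0.0582, 0.105, -0.20 and -0.30, and without the 3 CD8 EE libraries the value with Hspa1a was 0.0855. Dnaja1 and Dnajb1, the partner genes, had r of 0.478 before and 0.0562 after subtraction. These 15 correlations are a description, since libraries share mice, size factors and depth, and since the choice of the genes enters r before subtraction.

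**Figure D4:**
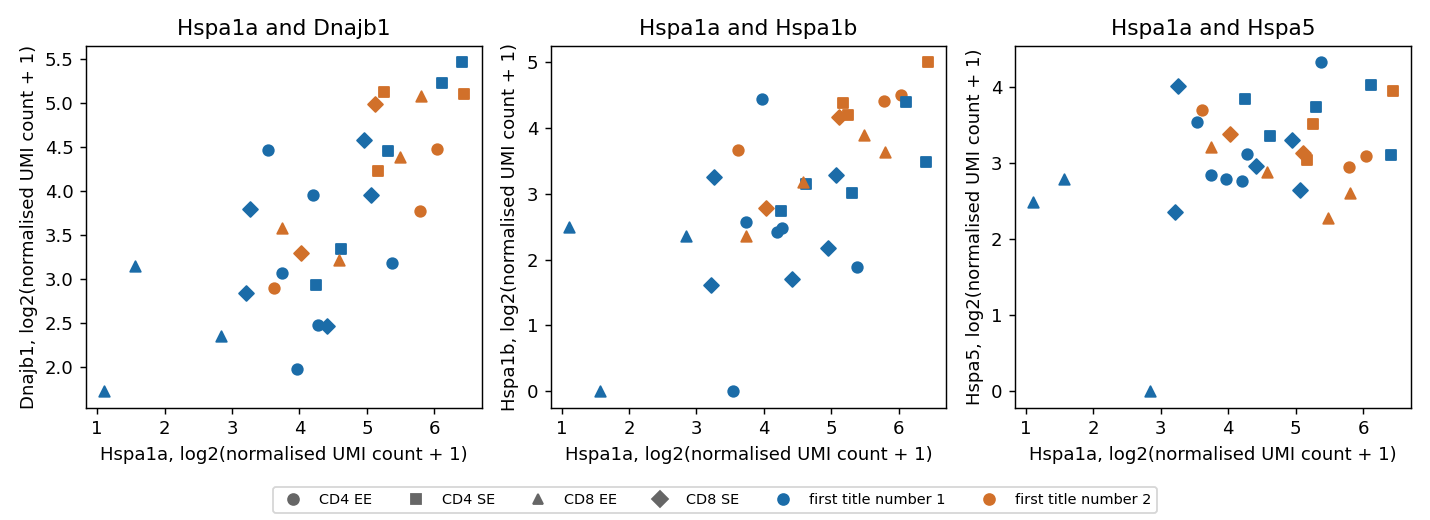
Log2(normalised UMI count + 1) of Hspa1a (horizontal axes) against Dnajb1, Hspa1b and Hspa5 (vertical axes), each point being a library, shape by group and colour by first title number. Dnajb1 rises with Hspa1a (r = 0.728), whereas Hspa5 shows little slope (r = 0.345), and the 3 CD8 EE libraries of first number 1 lie at the left.

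Ratios within a library do not depend on the size factor. UMIs of Hspa1a and Hspa1b per UMI of Hspa8 ran from 0.0769 through a median of 0.655 to 2.18, with group medians of 0.627 in CD4 EE, 0.885 in CD4 SE, 0.343 in CD8 EE and 0.541 in CD8 SE. In the 3 CD8 EE libraries of first number 1 the ratio was 0.0769, 0.161 and 0.294. For Hspa5 per Hspa8 the group medians, in the same order, were 0.2, 0.203, 0.129 and 0.16. For Dnaja1 per Hspa8 the medians were 0.25, 0.42, 0.224 and 0.192.

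Variation among libraries of 1 group and first number was set against counting error, for which the chi-square per degree of freedom (23 degrees) would be near 1. It was 15.5 for Hspa1a, 8.57 for Dnajb1, 4.88 for Hspa8, 3.56 for Hspa1b and 3.18 for Dnaja1, against a median of 1.61 over the 485 genes. The coefficient of variation beyond counting was 0.546 for Hspa1a and 0.535 for Dnajb1, ranks 6 and 7 of 485, while the median gene had 0.117. Hspa1b (0.281), Dnaja1 (0.278) and Hspa8 (0.239) were lower. The chi-square also rises with the count of a gene, so its values are not alike across levels. Among genes of similar mean, Hspa1a ranked 2 of 103 by the coefficient of variation, Dnajb1 6 of 190 and Hspa8 8 of 49. Dnaja1 ranked 37 of 207, Hspa1b 52 of 295 and Hspa5 209 of 324. For Hspa5 the estimate was 0, with a chi-square per degree of freedom of 1.40.

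For each gene, the genes of the table most like it by r over the 31 libraries, after the means of group and first number were subtracted, were as follows. Hspa8 was most like Dusp1 (r = 0.698), a phosphatase of the immediate early response, then Lck (0.544), a kinase of T cell receptor signalling. Dnajb1 was most like Junb (0.684), an AP-1 subunit, then Ifng (0.597) and Gimap6 (0.592).

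Dnaja1 was most like Sf3b1 (0.715), a splicing factor, then Rps10 (0.637) and Gm5786 (0.576). Hspa1b was most like Hnrnpab (0.671), then Ost4 (0.629) and Rpl26 (0.583), and Hspa5 was most like Irgm2 (0.639), H2.T23 (0.602) and Gbp8 (0.589). Hspa1a had the weakest leaders, Gnai2 (0.505), Klf2 (0.462) and Hspe1 (0.461). The named genes were picked as the highest of 479 over 31 libraries, so high r is partly due to the picking. The 95th percentile over the other genes lay at 0.322 for Hspa1a and 0.467 for Hspa5, below the values named for them. Several of the named genes had a mean under 5 normalised counts.

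Of the other chaperones listed, 7 were in the table: the HSP90 genes Hsp90aa1, Hsp90ab1 and Hsp90b1, the HSP70-HSP90 adaptor Stip1, the mitochondrial chaperonin genes Hspd1 and Hspe1, and Tcp1 of the cytosolic chaperonin. Between CD4 and CD8, 1 of 7 was called, against 7.42% of all genes: Hsp90aa1, at 3.41 to 30.5 in CD4 and 1.96 to 17.2 in CD8 libraries, with a difference of 0.78 (SE 0.24, limma adjusted p = 0.0448). The 7 had a median difference of 0.43, against 0.07 over all genes, and Tcp1 (0.63) and Hsp90b1 (0.58) came next.

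Between first numbers, 1 of 7 was called, against 10.7% of all genes: Hspe1, at 5.12 to 30.1 in first number 2 and 0 to 10.2 in first number 1, with a difference of 1.53 (SE 0.30, limma adjusted p = 0.00073). The median of the 7 was 0.08, against 0.03 over all genes. Tcp1 (0.63) and Hspd1 (0.44) came next and were not called. In CD8 libraries EE and SE gave 0 of 7 called, with Tcp1 at -0.80, Hspe1 at 0.46 and Hspd1 at 0.25. In CD4 libraries all 7 had lower log2 means in EE, with a median of -0.56 against -0.04 over all genes and Hspe1 (-0.99), Hsp90aa1 (-0.95) and Stip1 (-0.62) farthest, and this list too was set with that difference known.

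The 14 genes of the immediate early and handling list that were in the table, among them Junb, Ier2 and Dusp1, are given beside the chaperones. Their sum ran from 112 through a median of 261 to 422 normalised counts in CD4 libraries and from 117 through 152 to 257 in CD8 libraries. Of the 14, 3 were called higher in CD4 and none lower, beside 7.42% of all genes. In CD4 libraries 11 had lower and 3 higher log2 means in EE than in SE, with a median of -0.27 against -0.04 over all genes. This difference was known when the list was set. In CD8 libraries 9 were lower and 5 higher in EE, with a median of -0.12 against 0.04 over all genes. Between first numbers none of the 14 was called, beside 10.7% of all genes, with 6 higher and 8 lower in number 2 and a median difference of -0.00. The median of the sum was lower in number 2 for CD4 EE (305 in number 1 and 169 in number 2) and CD8 SE (155 and 154), and higher for CD4 SE (261 and 285) and CD8 EE (138 and 168). Their part in the chaperone values was not tested.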

How the data were processed

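RNA of 31 pools of sorted CD4+ or CD8+ choroid plexus T cells was measured. Per the labels and the methods of the study, molecules were tagged with UMIs at the template switch and sequenced on an Ion Proton. The authors trimmed reads with cutadapt, mapped them with STAR 2.4.0a to mm10, counted UMIs per gene on a GRCm38 Ensembl model, left out CD4 samples with Cd8a or Cd8b transcripts and genes of low abundance, and normalised with DESeq2. The deposited values are a signal, UMI counts divided by a size factor per library, for 485 genes. Whole UMI counts were recovered from them for 100.0% of values (tolerance 0.01), and totals of 1910 to 26395 UMIs limit the precision of low genes, where 1 UMI can be worth several normalised counts.

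Groups were taken from the sample labels. The members and gene lists were chosen with earlier results of these data known. Differences of log2(value + 1) were tested with limma 3.58.1 (R 4.3.3), two-sided, the variance prior following the mean. Genes at 0 in every library compared were left out, Benjamini-Hochberg adjustment ran over the rest, and an adjusted p of 0.05 was the threshold. The comparisons were CD4 against CD8 (environment as a term), first number 2 against 1 (group as a term) and EE against SE in CD8. The 1 added to each value shrinks differences among low values, and a difference of mean logs can depart from that of mean counts. In CD8 libraries, Hspa1a was at -0.70 with means of 20.4 in EE and 21.2 in SE. Dnaja1 was at -0.33 there with means of 10.3 in EE and 9.70 in SE. The p-values measure the spread between these libraries. Alternatives were pseudocounts 0.5 and 4, a mean of at least 5, rescaled totals, edgeR 4.0.16 with TMM and DESeq2 1.42.0 on the recovered counts, Hspa1a and Hspa1b summed, CD8 SE replicates 5 and 6 averaged, each library left out, the first number as covariate or apart, and the mouse as a block. Of 11 pairs of CD4 and CD8 libraries of the same animal (same environment, first number and animal number in the titles), 1 had correlated deviations over 0.1 (range -0.108 to 0.268). The script was tested on simulated counts.

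Named genes were the 6 members, the 3 listed chaperones with the largest absolute difference per comparison (plus those called), and the 3 genes most like each member, of which 1 is not reported here. Gene positions came from GENCODE vM21 and promoters from RefSeq (GRCm38.p6), with 5 of the 6 members matched. Promoter windows that overlap annotated exons are not printed.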

Additional observations from a re-analysis of the deposited data

Results flagged for a closer look

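In 3 of the 24 sets of libraries examined (6 genes in 4 groups of 7 to 9 libraries, on the log2 scale), the lowest library stood apart from the rest of its group by Dixon's test, and all 3 were libraries without a UMI of the gene. Dnaja1 was 0 in CD4 EE replicate 8, Hspa1b was 0 in CD8 EE replicate 7 and Hspa5 was 0 in CD8 EE replicate 4. Chance alone marks about 1 in 20 groups, and a count of 0 there still allows 4.35, 5.89 and 6.16 normalised counts.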

How the results depend on the processing

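The signs of the CD4 EE and SE differences were kept under all 124 alternative values, without a test. That difference chose the genes, so nothing is read from its kept sign. Of 262 alternative results for CD4 against CD8, 250 kept direction and side of the threshold, of 244 for the first number 208, and of 148 for CD8 EE against SE 138. Low UMI counts limit Hspa1b, Hspa5 and Dnaja1 most. Causes were not tested where values moved.

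For CD4 against CD8, genes called were 20 in first number 1 alone, 20 in first number 2 alone, 14 at a mean of at least 5 and 55 by DESeq2, against 36. Members called were 1 in first number 1 alone, 1 by DESeq2 (Hspa5), 1 with the first number as covariate and 1 with the mouse as a replicate block (Hspa1a, 1.04, limma adjusted p = 0.0335, 53 genes), against 0. Leaving out single libraries gave 0 to 1 members, beside 24 to 44 genes called. The replicate block changed no other call of a member. Hspa8 was -0.15 in first number 2 alone and -0.0568 without the 3 CD8 EE libraries of first number 1.

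For the first number, genes called were 90 by edgeR and 104 by DESeq2, against 52, and members called were 1 without the 3 CD8 EE libraries, against 2. Hspa8 was 0.0856 after rescaling, 0.000247 with pseudocount 0.5, 0.0488 by edgeR and 0.032 with CD8 SE replicates 5 and 6 averaged, and -0.0739 to 0.099 when single libraries were left out. Calls split 34 higher and 18 lower, 46 and 58 by DESeq2, and 52 and 17 after rescaling. For CD4 against CD8 the split was 21 and 15, and 15 and 23 after rescaling. The DESeq2 median of all genes for the first number was -0.13, against 0.03.

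For EE against SE in CD8, first number 1 alone gave 1 gene called and 1 member (Hspa1a). In first number 2 alone Hspa8 was 0.32, Hspa1a 0.33 and Dnaja1 0.27. By edgeR, Hspa1a was 0.0699 and Dnaja1 0.11, and by DESeq2 Dnaja1 was 0.12. Leaving out single libraries gave -0.61 to 0.17 for Dnaja1 and -0.38 to 0.27 for Hspa1b, the upper value in both without CD8 EE replicate 7, and 0.09 for Hspa1b without CD8 SE replicate 6.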
